A study of Mus musculus with 7 samples.

Results

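The comparison concerns the mouse uterus 12 h after an injection of dihydrotestosterone (DHT), a potent androgen that aromatase cannot turn into estrogen, set against the uterus of vehicle-treated mice. It was made of 2 of the 7 arrays of the series, the array titled as 12 h of DHT and the array titled as 0 h, and it took in 12422 of the 12488 probe sets, since the maker's 66 controls were kept apart. Both groups were C57BL/6 females described as 10 to 11 weeks old, whose ovaries had been removed and who were killed 7 days after that surgery. Mice of the 12 h group had received 0.1 mg DHT per mouse under the skin 12 h before death. Mice of the vehicle group had received the vehicle 24 h before death. The vehicle pool therefore differed from the 12 h pool in the agent, in the hours since the injection and perhaps in the hour of death, which the labels do not give, and these cannot be told apart. Each array held RNA from pooled uteri, and the labels name 10 mice without saying how many went into a pool. The other 5 arrays were pools taken 1, 3, 6, 18 and 24 h after DHT. The protocol text lists 0.5 h and no 18 h, and the array titles were followed. With 1 array a side there was no replicate and no test, so every ratio below describes this pair of pools.

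DHT binds the androgen receptor, a steroid receptor that enters the nucleus and binds DNA at sites that it shares in part with the glucocorticoid receptor. In rodents whose ovaries have been removed the uterus is thin and little stimulated, and androgens as well as estrogens make it grow again. Tissue growth calls for protein synthesis and folding in the endoplasmic reticulum (ER), for ribosome production, for copying of DNA and then for mitosis, each served by its own set of genes.

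The values were hybridization signals of the Affymetrix U74Av2 array on a linear scale, scaled by the submitters. The lowest 40% of the values, those under a signal of 145.9, were raised to that signal, called the floor, before a ratio was taken. A ratio with one side at the floor is therefore a bound. A gene was read from its brightest probe set. Levels are compared between arrays for 1 gene, never between genes. The array medians were 238 at 12 h and 238 on vehicle, and the 7 arrays lay between 228.0 and 238. Of the 12422 probe sets, 7064 were above the floor on both arrays, and their log2 ratios had a median of 0.00 and an SD of 0.45 across probe sets. Markers of the main uterine tissues were found on both arrays. Myh11, the smooth muscle myosin of the myometrium, read 8076 at 12 h and 7171 on vehicle (log2 ratio 0.17). The epithelial keratin gene Krt18 read 1589 at 12 h and 1955 on vehicle (log2 ratio -0.30). Lum, a matrix protein gene of stromal fibroblasts, read 4632 at 12 h and 4829 on vehicle (log2 ratio -0.06). All 11 myometrium markers were above the floor. The ovary markers Cyp11a1, Cyp17a1, Amh and Inha were at the floor on both arrays. They belong to a list of ovary, oviduct and mesothelium markers, of which 9 of 16 were above the floor on either array. The same held for 11 of 14 adipocyte markers and 9 of 15 markers of vaginal, cervical or bladder epithelium. In bulk tissue, more or fewer cells of a type and more or less RNA per cell cannot be told apart.

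At 12 h 147 probe sets (1.18%) were at least 2-fold higher than on vehicle and 117 (0.942%) were at least 2-fold lower, where the higher signal had to reach 291.8, which is 2 times the floor. Taken by gene, 6022 genes were above the floor on either array, of which 116 (1.93%) were at least 2-fold higher and 76 (1.26%) at least 2-fold lower. The median over these genes was 0.00 on the log2 scale, and 50.6% lay above 0. These shares are the background against which the gene lists below are read. A list member is called measured where it was above the floor on either array, as for the 6022 genes. A member at the floor on vehicle alone could only lie above 0, and one at the floor at 12 h alone only below 0. The counts above and below 0 were in part set by this choice. List medians at other times are over the same members, chosen by the 12 h and vehicle arrays. A higher floor, at the 60th percentile of the values, raises more members of a list to the floor on both arrays and so brings their ratios to 0. Where this or another setting changed the log2 median of a list by a factor over 1.5, that value is given in brackets. Both ER lists are given so as well, with smaller changes. The closing section counts moved medians by another rule. The highest ratio among genes measured on both arrays was that of Acta1, and the lowest was that of Klf13, both described further on. Probe sets for the same gene did not always give the same answer. Over 962 genes with at least 2 probe sets above the floor, the pooled SD between probe sets of a gene was 0.41. Of the called genes, 35 had other such probe sets, and in 25 of them all the others lay on the same side of 0. In 13 of the 35 all the others were at least 1.5-fold the same way. These counts leave out probe sets at the floor on both arrays, which gave 0.00. Among the genes named below, such probe sets include the second ones of Rrm1, Mthfd2, Mcm5, Hsd11b2, Kif20a, Kdelr2 and C2. Dnajc3 and Ifi204 also had some.

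**Figure D1:**
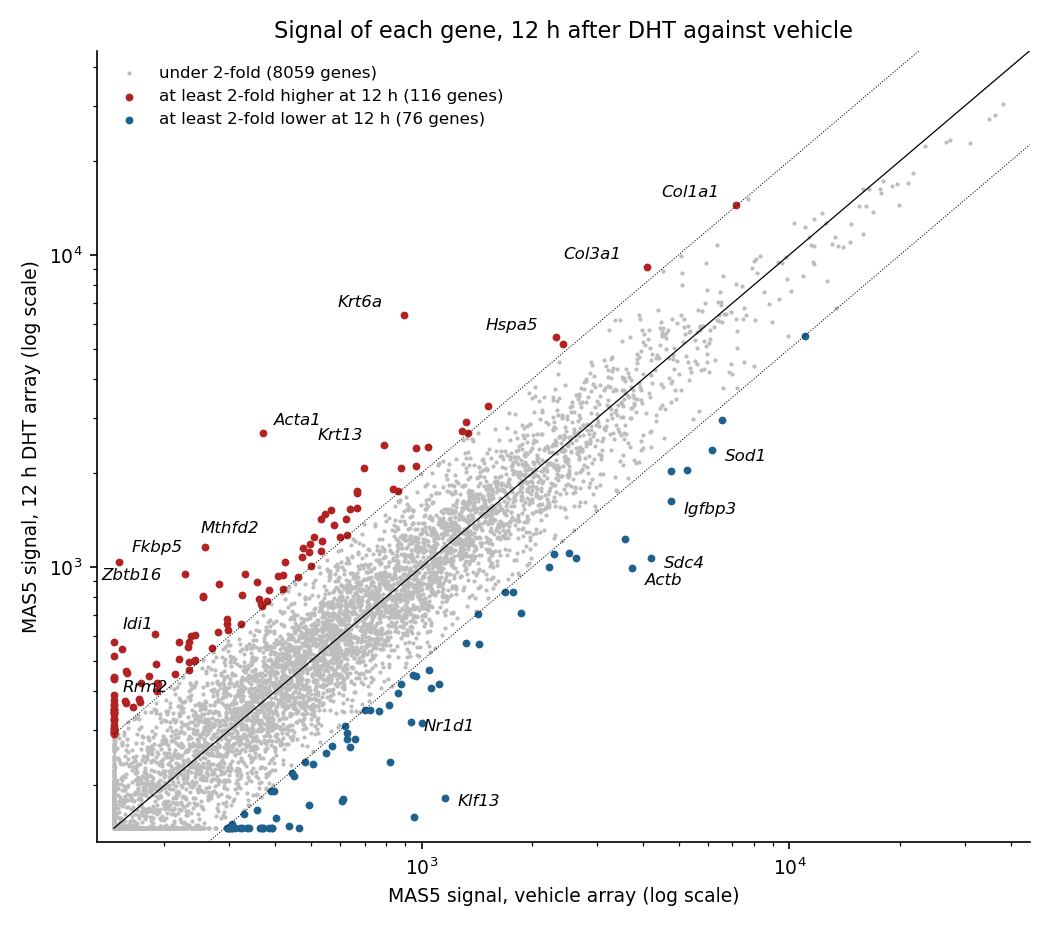
Signal of each gene on the 12 h DHT array (y axis) against the vehicle array (x axis), both on log scales, with values under the floor of 145.9 drawn at the floor. Red points are the 116 genes at least 2-fold higher at 12 h, blue points the 76 at least 2-fold lower, the solid line marks equal signal and the dotted lines mark 2-fold. Krt6a, Acta1 and Fkbp5 stand farthest above the line and Klf13 farthest below it among the named genes.

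Genes for folding proteins in the ER formed the list with the highest median at 12 h among the 42 pathway lists. Of 24 measured members of the list of ER chaperones and the unfolded protein response, 9 were at least 2-fold higher (against 1.93% of all genes above the floor). At least 1.5-fold higher were 14 and none was 2-fold lower. The median log2 ratio was 0.72 (0.49 with the higher floor and 0.61 with the mean over probe sets of a gene). Hspa5 encodes BiP, the main chaperone of the ER lumen, and read 5467 at 12 h and 2325 on vehicle (log2 ratio 1.23). Its partner co-chaperone gene Dnajb11 read 357 at 12 h and 164 on vehicle (log2 ratio 1.12). Another partner, Dnajc3, read 851 at 12 h and 419 on vehicle (log2 ratio 1.02). Protein disulfide isomerases form and shuffle disulfide bonds, and 3 of their genes were 2-fold higher. Pdia3 read 2402 at 12 h and 965 on vehicle (log2 ratio 1.32). Pdia4 read 1187 at 12 h and 498 on vehicle (log2 ratio 1.25). Pdia6 read 2109 at 12 h and 969 on vehicle (log2 ratio 1.12). The other 2 Pdia6 probe sets gave 1.24 and 0.84. Manf, a secreted protein released from stressed ER, read 1525 at 12 h and 566 on vehicle (log2 ratio 1.43). Creld2, another ER stress protein, read 683 at 12 h and 296 on vehicle (log2 ratio 1.21). Serp1, which guards new membrane proteins, read 2695 at 12 h and 1341 on vehicle (log2 ratio 1.01). P4hb, the isomerase that is also a subunit of the collagen prolyl hydroxylase, went the other way and read 1318 at 12 h and 2602 on vehicle (log2 ratio -0.98).

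Promoter sequences are shown for 4 of the 2-fold higher ER genes because they hold the ER stress element, the DNA motif through which the unfolded protein response factors act on chaperone genes. The motif was searched as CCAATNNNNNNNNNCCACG on both strands, from 250 bases before to 50 after the gene start, in RefSeq's promoters of assembly GRCm38.p6. It was held by 7 of the 21 list members with a promoter in the table (33.3%) and by 12 of 6576 genes of the array (0.182%). Of the 8 list members that were 2-fold higher and had a promoter, 4 held it. A match describes the letters only. Capitals mark the fixed letters of the motif, each line runs along the gene's own strand, and in Creld2 the motif lies on the other strand. The windows are chr2:34772000-34772068 for Hspa5, chr12:17266466-17266534 for Pdia6, chr15:88819495-88819563 for Creld2 and chr14:118937802-118937870 for Dnajc3, all on the plus strand.
Hspa5: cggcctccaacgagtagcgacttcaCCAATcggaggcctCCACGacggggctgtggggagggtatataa
Pdia6: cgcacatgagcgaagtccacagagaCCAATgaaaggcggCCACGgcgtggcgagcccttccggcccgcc
Creld2: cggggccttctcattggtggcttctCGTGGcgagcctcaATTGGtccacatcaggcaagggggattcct
Dnajc3: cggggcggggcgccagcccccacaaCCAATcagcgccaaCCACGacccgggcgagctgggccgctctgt

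The ER list was near its 12 h level already at 6 h. Its median was 0.08, 0.21, 0.57, 0.72, 0.18 and 0.26 at 1, 3, 6, 12, 18 and 24 h. Set directly against the 6 h array, which needs no vehicle, the median of the 12 h ratios was 0.01, and against the 18 h array it was 0.25. Hspa5 read 2325 on vehicle and 2994, 3643, 5084, 5467, 3216 and 3046 at 1, 3, 6, 12, 18 and 24 h. Pdia4 read 498 on vehicle and 432, 487, 779, 1187, 654 and 466 at 1, 3, 6, 12, 18 and 24 h, so that its 12 h signal was above all 6 others. Fkbp11, a peptidyl-prolyl isomerase of the secretory path, was not on the list and read 545 at 12 h and 153 on vehicle (log2 ratio 1.83). Selenos, a selenoprotein of the machinery that removes misfolded ER proteins, read 608 at 12 h and 189 on vehicle (log2 ratio 1.69). Ergic1, a cargo protein between ER and Golgi, read 805 at 12 h and 254 on vehicle (log2 ratio 1.66).

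The genes that bring new proteins into the ER and on to the Golgi were shifted the same way with fewer 2-fold members. Of 35 measured, 30 lay above 0, 2 were 2-fold higher and 1 was 2-fold lower, with a median of 0.42 (0.34 with the mean over probe sets). Sec61b, a subunit of the translocation channel, read 2426 at 12 h and 1039 on vehicle (log2 ratio 1.22). Sec61a2, which encodes another channel protein, was not on the list and read 423 at 12 h and 1114 on vehicle (log2 ratio -1.40). Ssr2, of the complex beside that channel, read 902 at 12 h and 451 on vehicle (log2 ratio 1.00). Among the receptors that return escaped chaperones to the ER, Kdelr3 read 1361 at 12 h and 578 on vehicle (log2 ratio 1.24). Kdelr2 read 318 at 12 h and 1004 on vehicle (log2 ratio -1.66). Kdelr2 was also low at 6 and 24 h, an order of arrays that control probe sets shared, as described with the lower genes.

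The amino acid and folate genes under the stress factor ATF4, with the tRNA synthetases, had a median of 0.41 (0.16 with the higher floor) over 34 genes, of which 26 lay above 0 and 4 were 2-fold higher. Mthfd2, a folate enzyme of mitochondria that is active in dividing cells, read 1156 at 12 h and 257 on vehicle (log2 ratio 2.17). Psat1, of serine synthesis, read 1424 at 12 h and 534 on vehicle (log2 ratio 1.42). The transcription factor gene Atf5 read 1722 at 12 h and 668 on vehicle (log2 ratio 1.37). Eprs, a tRNA synthetase, read 469 at 12 h and 234 on vehicle (log2 ratio 1.00). Phgdh, the step ahead of Psat1, was lower and read 97.7 at 12 h and 246 on vehicle (log2 ratio of -0.75 or lower), where the 12 h signal lay under the floor. Nucleolar and ribosome assembly genes had a median of 0.41 (0.17 with the higher floor and 0.26 with the mean over probe sets of a gene) with 31 of 35 above 0 and 1 at 2-fold, the helicase gene Ddx21, which read 752 at 12 h and 368 on vehicle (log2 ratio 1.03). Cytosolic ribosomal protein genes had 19 of 24 below 0 and a median of -0.17 (-0.023 with quantile normalization, -0.10 with the higher floor and -0.11 with the mean over probe sets). Srm, which makes spermidine from putrescine, read 881 at 12 h and 281 on vehicle (log2 ratio 1.65). Sat1, which starts polyamine breakdown, read 1002 at 12 h and 2227 on vehicle (log2 ratio -1.15).

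Chaperones of the cytosol and mitochondria were nearly all above vehicle, by less than the ER set. Of 27 measured, 26 lay above 0, 10 were at least 1.5-fold higher and 3 were 2-fold higher, with a median of 0.35 that was below the 0.59 of the 6 h array. Cct8, a subunit of the ring that folds actin and tubulin, read 1037 at 12 h and 424 on vehicle (log2 ratio 1.29). Hsph1, a nucleotide exchange factor for HSP70, read 1747 at 12 h and 862 on vehicle (log2 ratio 1.02). Stip1, which links HSP70 to HSP90, read 928 at 12 h and 462 on vehicle (log2 ratio 1.01). Hspe1, the mitochondrial co-chaperonin, read 2557 at 12 h and 1297 on vehicle (log2 ratio 0.98). The proteasome list had a median of 0.36 with 31 of 34 above 0 and none at 2-fold, and its highest member, Psmd12, read 587 at 12 h and 318 on vehicle (log2 ratio 0.88). The 58 genes of the mitochondrial respiratory chain had a median of 0.31 with 44 above 0 and none at 2-fold. For both lists the sign was shared by many members while no single member passed 2-fold. Of all genes above the floor, 8.98% were at least 1.5-fold higher, against 7 of 34 proteasome genes and 12 of 58 respiratory chain genes.

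**Figure D2:**
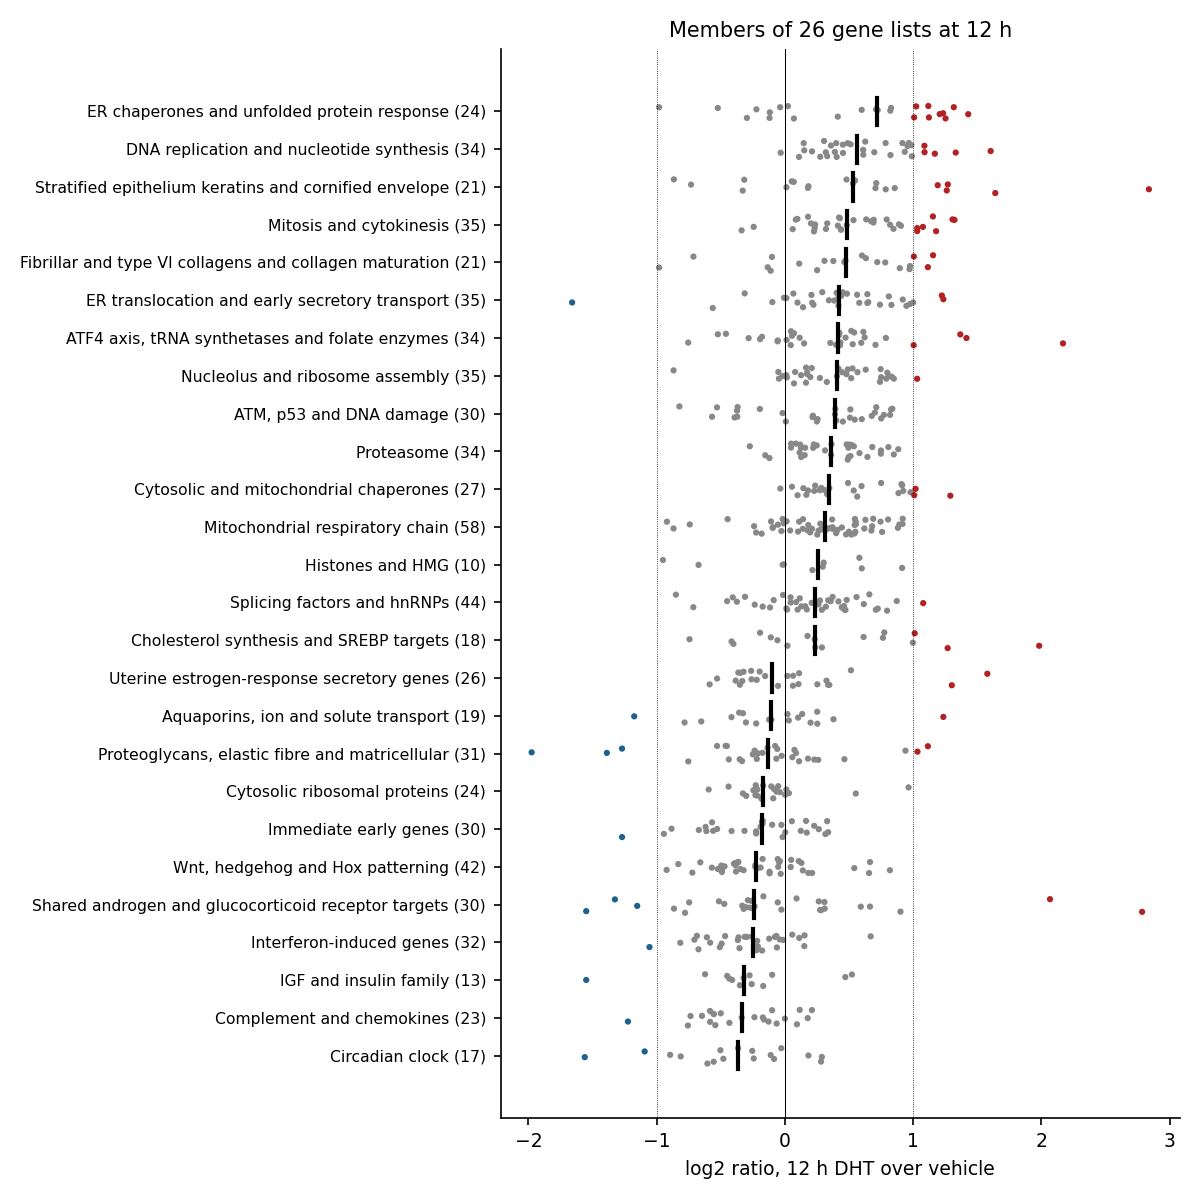
Log2 ratio of 12 h DHT over vehicle (x axis) for the measured members of 26 gene lists (rows, number of members in brackets), ordered by their median (black bar). Red points are members at least 2-fold higher and blue points members at least 2-fold lower. ER chaperones, DNA replication and stratified epithelium genes have the highest medians drawn, and circadian and complement genes the lowest.

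DNA replication genes were above vehicle almost throughout. Of 34 measured members, 33 lay above 0, 17 were at least 1.5-fold higher and 5 at least 2-fold higher, with none 2-fold lower and a median of 0.56 (0.31 with the higher floor). The 2 subunits of ribonucleotide reductase, which makes the deoxynucleotides for new DNA, led the list. Rrm2 read 444 at 12 h and 139 on vehicle (log2 ratio of at least 1.60). Rrm1 read 897 at 12 h and 356 on vehicle (log2 ratio 1.33). Of the helicase that unwinds DNA at the fork, the subunit gene Mcm3 read 1208 at 12 h and 538 on vehicle (log2 ratio 1.17), and its second probe set gave 0.64. The subunit gene Mcm5 read 2732 at 12 h and 1286 on vehicle (log2 ratio 1.09). Rpa3, of the protein that coats single-stranded DNA, read 455 at 12 h and 214 on vehicle (log2 ratio 1.09). Mcm2, the lowest member, read 737 at 12 h and 754 on vehicle (log2 ratio -0.03). The list medians were 0.00, 0.02, 0.09, 0.56, 0.32 and 0.09 at 1, 3, 6, 12, 18 and 24 h. Against the 6 h array the median of the 12 h ratios was 0.41, and against the 18 h array it was 0.32. Rrm2 read 139 on vehicle and 145, 152, 136, 444, 253 and 199 at 1, 3, 6, 12, 18 and 24 h, so that it was at or near the floor up to 6 h and highest at 12 h.

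Mitosis genes were also higher at 12 h, at a lower level than they had at 18 h. Of 35 measured members, 33 lay above 0, 16 were at least 1.5-fold higher and 7 were 2-fold higher, with a median of 0.48 (0.16 with the higher floor). On the 6, 18 and 24 h arrays their medians were 0.00, 0.86 and 0.71, and against the 18 h array the median of the 12 h ratios was -0.34. Aurkb, the kinase of the chromosomal passenger complex, read 365 at 12 h and 93.2 on vehicle (log2 ratio of at least 1.32). Birc5, the survivin of that complex, read 426 at 12 h and 192 on vehicle (log2 ratio 1.15). Cks1b, a small partner of cyclin-dependent kinases, read 1121 at 12 h and 495 on vehicle (log2 ratio 1.18). Top2a, which untangles chromosomes, read 402 at 12 h and 191 on vehicle (log2 ratio 1.08). The spindle checkpoint gene Mad2l1 read 552 at 12 h and 270.0 on vehicle (log2 ratio 1.03). Ube2c, which marks cyclins for destruction, read 361 at 12 h and 117 on vehicle (log2 ratio of at least 1.31) on an _r_at probe set, a name explained with the lower genes. Kif20a, a kinesin of cytokinesis, read 298 at 12 h and 78.8 on vehicle (log2 ratio of at least 1.03). Birc5 read 192 on vehicle and 172, 193, 208, 426, 619 and 495 at 1, 3, 6, 12, 18 and 24 h, with the 3 highest signals on the 12, 18 and 24 h arrays.

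Promoters are shown for 3 of these genes because their lists are known for shared elements, the E2F site in replication genes and the CHR element in mitosis genes. The E2F letters TTTGGCGC, on either strand, were in 5 of 31 replication promoters (16.1%) and in 74 of 6576 array genes (1.13%). The letters TTTCCCGC were in 5 of 31 (16.1%) and in 145 of the 6576 (2.20%). The CHR letters TTTGAA were in 21 of 27 mitosis promoters (77.8%) and in 1017 of the 6576 (15.5%). Mcm3 held both E2F letter strings, at places that do not overlap. Capitals mark the motif, on the other strand in Mcm5 and Cks1b. The windows are chr8:75109335-75109392 on the plus strand for Mcm5, chr3:89418338-89418393 on the minus strand for Cks1b and chr11:99024338-99024393 on the minus strand for Top2a.
Mcm5: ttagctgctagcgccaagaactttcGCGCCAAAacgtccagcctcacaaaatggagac
Cks1b: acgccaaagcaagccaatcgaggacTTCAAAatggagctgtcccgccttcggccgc
Top2a: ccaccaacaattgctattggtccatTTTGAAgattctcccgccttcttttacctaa

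The genes that govern entry into the cycle lay closer to vehicle. Of 21 measured G1 cyclins, kinases, inhibitors and E2F genes, 12 lay above 0 and none was 2-fold apart, with a median of 0.09 (0 with the higher floor and 0.17 with a floor at the 20th percentile). Cyclin E1 (Ccne1), which drives the start of replication, read 623 at 12 h and 377 on vehicle (log2 ratio 0.73). Cdkn1c, the inhibitor p57, read 856 at 12 h and 1559 on vehicle (log2 ratio -0.87). The series title names the ATM and Gadd45g path. Gadd45g, a stress sensor that slows the cycle, read 429.9 at 12 h and 435 on vehicle (log2 ratio -0.02). The damage kinase gene Atm read 583 at 12 h and 501 on vehicle (log2 ratio 0.22). The 30 measured genes of ATM, p53 and DNA damage had a median of 0.39 (0 with the higher floor) with 21 above 0 and none at 2-fold. Among the furthest members, Wee1, a kinase that holds back mitosis, read 261 at 12 h and 91.9 on vehicle (log2 ratio of at least 0.84). Parp1, which marks DNA breaks, read 307 at 12 h and 173 on vehicle (log2 ratio 0.83). Cdc25c, the phosphatase that starts mitosis, is also on the mitosis list and read 263 at 12 h and 149 on vehicle (log2 ratio 0.82). Ddb1, of the damaged DNA binding complex, read 3732 at 12 h and 6601 on vehicle (log2 ratio -0.82).

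**Figure D3:**
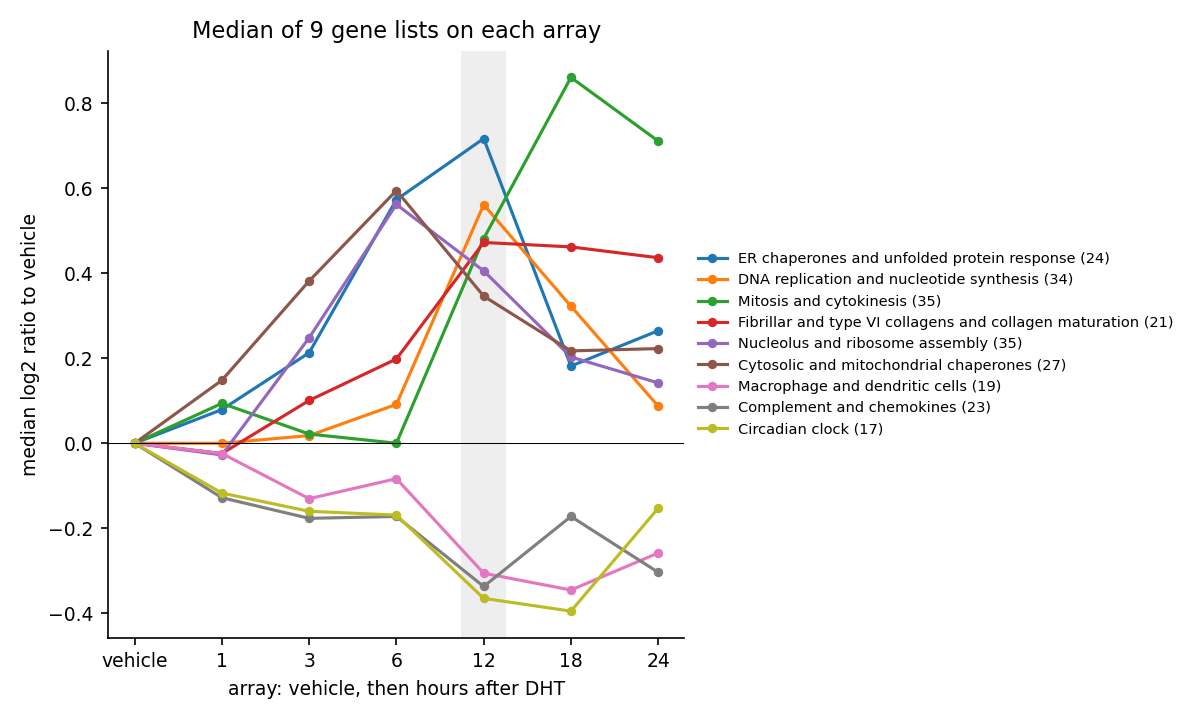
Median log2 ratio to vehicle (y axis) of 9 gene lists on each array (x axis, vehicle and then hours after DHT), with the 12 h array shaded and the number of measured members in brackets. All ratios share the vehicle array. ER chaperones and DNA replication are highest at 12 h, mitosis at 18 h, and nucleolar genes and cytosolic chaperones at 6 h.

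Cholesterol synthesis genes and other targets of the same regulator, SREBP, lay on both sides of vehicle. Of 18 measured members, 12 lay above 0 and 3 were 2-fold higher, with a median of 0.23 (0.0099 with the higher floor). Hmgcs1, which makes the precursor of mevalonate, read 1011 at 12 h and 501 on vehicle (log2 ratio 1.01). Idi1, the isomerase further down, read 576 at 12 h and 83.9 on vehicle (log2 ratio of at least 1.98). Fdps, which makes farnesyl diphosphate, read 1149 at 12 h and 477 on vehicle (log2 ratio 1.27), with 1.37 on another probe set and 0.00 on the remaining pair. Msmo1, a late step, read 318 at 12 h and 159 on vehicle (log2 ratio 1.00), just under 2-fold. Fasn, the fatty acid synthase, had the lowest ratio of the list and read 1826 at 12 h and 3058 on vehicle (log2 ratio -0.74). The promoter of Hmgcs1 is shown for its sterol element, searched as TCACNCCAC on both strands. That motif was in 1 of 13 list members with a promoter (7.69%) and in 108 of 6576 array genes (1.64%). Capitals mark its fixed letters, and the window is chr13:119690189-119690247 on the plus strand.
Hmgcs1: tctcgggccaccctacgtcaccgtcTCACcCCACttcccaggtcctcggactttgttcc

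Keratins and envelope proteins of stratified epithelium included the 2 genes that were at least 2-fold higher at 12 h than on all 6 other arrays, Krt6a and Krt6b. Krt6a, a keratin of growing or wounded stratified epithelium, read 896 on vehicle and 1165, 2113, 2284, 6404, 2469.5 and 1073 at 1, 3, 6, 12, 18 and 24 h. Its 12 h signal was 2.84 above vehicle on the log2 scale, its second probe set gave 3.11, and the next highest array, 18 h, read 2469.5. Krt6b, a close copy of Krt6a whose probes may bind both, read 1537 at 12 h and 641 on vehicle (log2 ratio 1.26). Krt13, a keratin of the layers above the base, read 2467 at 12 h and 792 on vehicle (log2 ratio 1.64), with 1.65 and 0.00 on its other probe sets. The galectin gene Lgals7 read 352 at 12 h and 120.1 on vehicle (log2 ratio of at least 1.27). Sprr1a, a protein of the cornified envelope, read 1423 at 12 h and 623 on vehicle (log2 ratio 1.19). Of 21 measured list members 17 lay above 0 and 5 were 2-fold higher, with a median of 0.53 (0.053 with the higher floor and 0.27 with the mean over probe sets).

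Markers of vaginal, cervical or bladder epithelium, tissues that adjoin the uterus or can be taken with it, were higher as well. All 9 measured of 15 on the array lay above 0, and their summed signal was 18991 at 12 h and 8255 on vehicle. Several of them are the keratin genes just given. The basal layer markers Krt5, Krt14, Krt15 and Dsc3, the bladder marker Upk2 and the envelope protein gene Sprr3 were at the floor on both arrays. Trp63, the basal cell transcription factor, read 319 at 12 h and 281 on vehicle (log2 ratio 0.18). The part of such tissue in the keratin values was not tested. Markers of simple epithelium lay on both sides of 0. Of 18 measured uterine epithelium markers 8 lay above 0 and none was 2-fold apart, and Krt8, the keratin of simple epithelium, read 2423 at 12 h and 2694 on vehicle (log2 ratio -0.15).

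**Figure D4:**
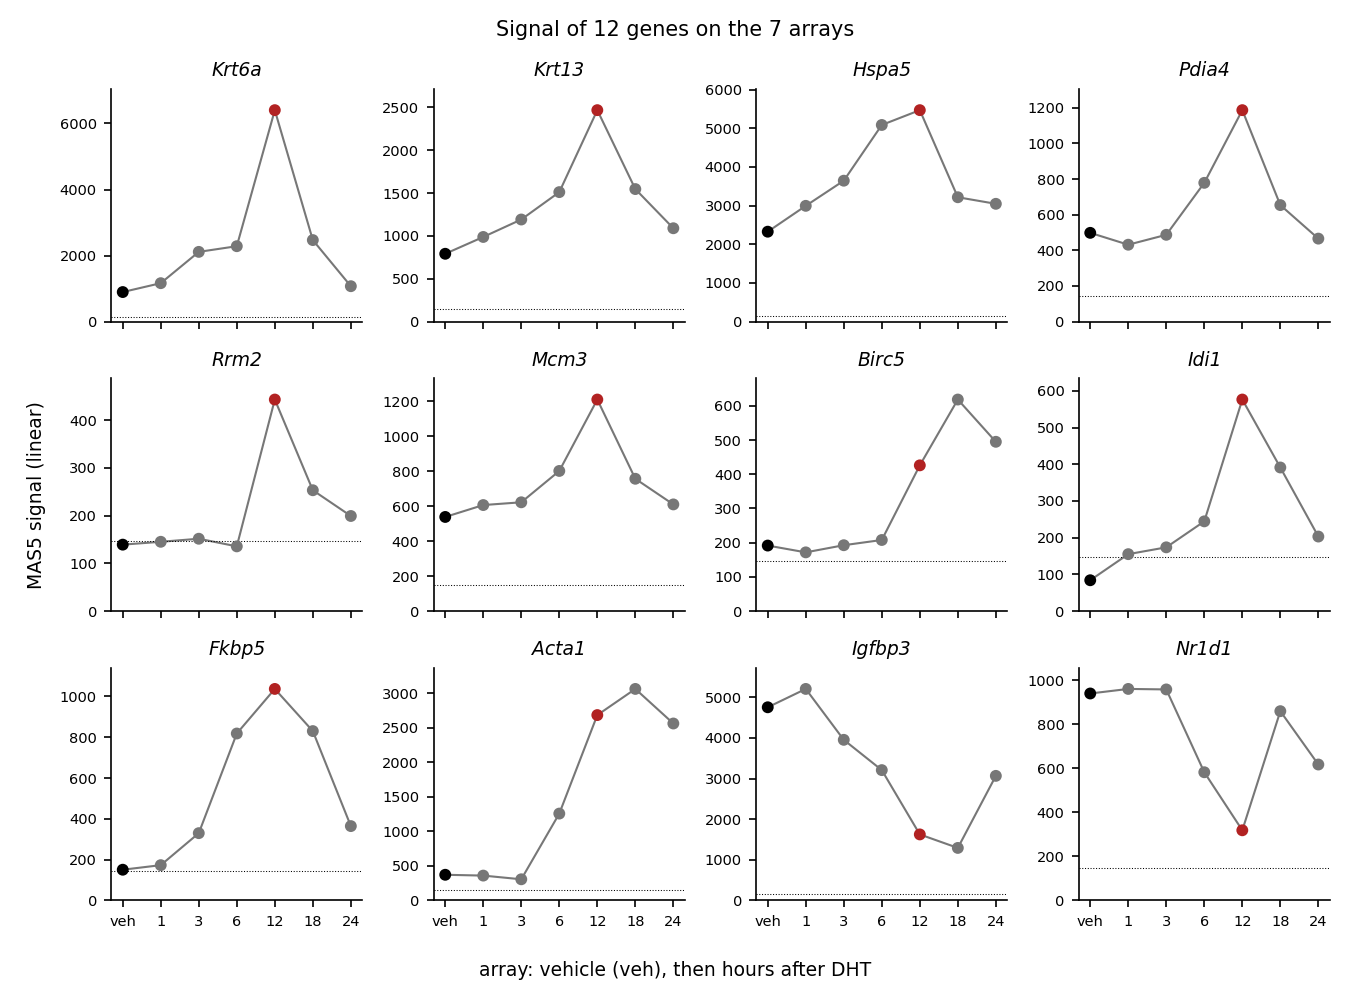
Signal on a linear scale (y axis, from 0, each panel with its own range) of 12 genes on the vehicle array (black) and 1 to 24 h after DHT (grey, with 12 h in red), 1 pooled array a point. The dotted line is the floor of 145.9. Krt6a, Krt13, Rrm2, Mcm3, Idi1, Pdia4, Hspa5 and Fkbp5 have their highest signal at 12 h, Birc5 and Acta1 at 18 h, Igfbp3 its lowest at 18 h and Nr1d1 its lowest at 12 h.

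Of the genes that answer to both androgen and glucocorticoid receptors, 30 were measured, of which 2 were 2-fold higher and 3 were 2-fold lower. Fkbp5, a co-chaperone of steroid receptors and a common marker of androgen action, read 151 on vehicle and 173, 329.8, 818, 1037, 830.2 and 364 at 1, 3, 6, 12, 18 and 24 h, so that 12 h was its highest time, from a vehicle signal just over the floor. Its log2 ratio at 12 h was 2.78. Zbtb16, a transcriptional repressor with zinc fingers, read 950.2 at 12 h and 227 on vehicle (log2 ratio 2.07), with its second probe set at the floor on both arrays. On the lower side, Igfbp3, a binding protein that holds IGFs in the circulation and tissue, read 1625 at 12 h and 4755 on vehicle (log2 ratio -1.55), and its second probe set gave -1.31. Pdk4, which diverts pyruvate from oxidation, read 145 at 12 h and 366 on vehicle (log2 ratio of -1.33 or lower), and Sat1 was given above. Of the 30 genes 11 lay above 0 and 19 below, with a median of -0.24 (-0.027 with the higher floor and -0.077 with the mean over probe sets).

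Enzymes that set local hormone levels included 3 of 14 measured at 2-fold or more. Hsd11b2, which inactivates corticosterone, read 815 at 12 h and 326 on vehicle (log2 ratio 1.32). Aldh1a2, which makes retinoic acid, read 351 at 12 h and 116 on vehicle (log2 ratio of at least 1.26). Hsd17b4, a peroxisomal enzyme that can oxidise estradiol, read 938 at 12 h and 406 on vehicle (log2 ratio 1.21). The nuclear receptors and their coregulators had none of 22 at 2-fold and a median of 0.08 (0 with the higher floor and 0.046 with the mean over probe sets). The retinoic acid receptor gene Rarg, the furthest of them, read 296 at 12 h and 155 on vehicle (log2 ratio 0.93). Secretory genes known from the uterine estrogen response had a median of -0.10 (0 with the higher floor and 0.036 with the mean over probe sets) over 26 genes with 2 at 2-fold. Sprr2f, a small proline-rich protein of the uterine lining, read 2079 at 12 h and 697 on vehicle (log2 ratio 1.58), though its family has near-identical copies that its probes may not separate. Padi1, which turns arginine into citrulline, read 447 at 12 h and 181 on vehicle (log2 ratio 1.30).

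Among muscle and matrix genes single members were high. Acta1, the skeletal muscle form of actin, read 371 on vehicle and 359, 306, 1257, 2682, 3060.3 and 2560.0 at 1, 3, 6, 12, 18 and 24 h. It had the highest ratio among genes measured on both arrays, 2.85 on the log2 scale, with the 4 highest signals on the 6 to 24 h arrays. Its smooth muscle relative Actg2 read 4533 at 12 h and 2371 on vehicle (log2 ratio 0.93). The cardiac form, Actc1, read 2587 at 12 h and 1329.5 on vehicle (log2 ratio 0.96). Probes of actin genes may bind more than 1 of them. The skeletal muscle genes Tnnt3, Tnni2, Myh1, Myh2 and Atp2a1 were at the floor on both arrays, and 9 of 13 measured skeletal muscle markers lay below 0. Smooth muscle contraction genes had a median of 0.14 with 21 of 27 above 0 and none at 2-fold. All 11 myometrium markers lay above 0 (of all genes above the floor, 50.6% did), 2 of them at least 1.5-fold higher and none at 2-fold. Their summed signal was 57204 at 12 h and 49015 on vehicle. Connexin 43 (Gja1), the gap junction protein of the myometrium, read 2535 at 12 h and 1383 on vehicle (log2 ratio 0.87).

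Fibrillar and type VI collagens with their maturation enzymes had a median of 0.47, with 16 of 21 above 0, 10 at least 1.5-fold higher and 3 at least 2-fold higher. Col3a1, a main collagen of soft stroma, read 9104 at 12 h and 4089 on vehicle (log2 ratio 1.15), and its other probe sets gave 0.98 and 1.65. Col1a1 read 14379 at 12 h and 7164 on vehicle (log2 ratio 1.01), where a second probe set gave -0.21, so its probe sets did not agree. Sparc, a collagen-binding protein, read 3274 at 12 h and 1512 on vehicle (log2 ratio 1.11). Vcan, a large proteoglycan of loose matrix, read 777 at 12 h and 379.6 on vehicle (log2 ratio 1.03). Other matrix genes were at least 2-fold lower. Tnxb, a tenascin that spaces collagen fibrils, read 714 at 12 h and 1869 on vehicle (log2 ratio -1.39), and its second probe set gave -1.25. Ccn2, a matricellular growth factor, read 265 at 12 h and 639 on vehicle (log2 ratio -1.27). Mmp11, a stromal protease, read 410.4 at 12 h and 1059 on vehicle (log2 ratio -1.37). Adam9, a membrane protease, was higher and read 344 at 12 h and 128 on vehicle (log2 ratio of at least 1.24). The list of proteoglycans, elastic fibre and matricellular genes had 20 of 31 below 0, 3 at least 2-fold lower and 2 at least 2-fold higher, with a median of -0.14 (0 with the higher floor and -0.077 with the mean over probe sets).

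Immune genes were mostly below vehicle by small amounts. All 19 measured markers of macrophages and dendritic cells lay below 0 (of all genes above the floor, 50.6% lay above 0), 3 of them by at least 1.5-fold (7.41% of all genes above the floor were that much lower) and none by 2-fold, with a median of -0.31. Their summed signal was 23380 at 12 h and 30367 on vehicle, with 28528, 27346, 29000, 23484 and 25479 at 1, 3, 6, 18 and 24 h. The macrophage pore protein gene Mpeg1 read 848 at 12 h and 1495 on vehicle (log2 ratio -0.82). Of the MHC class II genes, which present antigen, H2-Ab1 read 855 at 12 h and 1425 on vehicle (log2 ratio -0.74). H2-Aa read 1985 at 12 h and 3064 on vehicle (log2 ratio -0.63). Cd74, the chain that escorts them, read 4296 at 12 h and 5849 on vehicle (log2 ratio -0.45). Ciita, the factor that switches on MHC class II genes, read 158 at 12 h and 402 on vehicle (log2 ratio -1.35). Complement and chemokine genes had 19 of 23 below 0 and a median of -0.34 (-0.00028 with the higher floor). C2, a complement protease, read 282 at 12 h and 659 on vehicle (log2 ratio -1.22). The chemokine gene Cx3cl1 read 719.7 at 12 h and 1216 on vehicle (log2 ratio -0.76). Another chemokine gene, Cxcl12, read 864 at 12 h and 1439.5 on vehicle (log2 ratio -0.74). Interferon-induced genes had 27 of 32 below 0 and a median of -0.25 (-0.10 with the higher floor), and 1 was 2-fold lower, Ifi204, a DNA sensor, which read 348 at 12 h and 724 on vehicle (log2 ratio -1.06). Irf7, a factor that switches on interferon genes, read 269 at 12 h and 473 on vehicle (log2 ratio -0.82).

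Markers of fat lay mostly below vehicle. Of 11 measured adipocyte markers 9 lay below 0, with a median of -0.53 and a summed signal of 9351 at 12 h and 12523 on vehicle. The fat hormone gene Adipoq read 1721 at 12 h and 2468 on vehicle (log2 ratio -0.52), while leptin (Lep) read 763 at 12 h and 391 on vehicle (log2 ratio 0.97). Of 9 measured ovary, oviduct and mesothelium markers 7 lay below 0. Of 15 measured endothelial markers 11 did, with a median of -0.12 (-0.0050 with the higher floor). Of 6 measured nerve markers 4 lay below 0, a count near the background, since 50.6% of all genes above the floor lay above 0. The part of the tissue makeup of the pools in the higher muscle values and the lower immune and matrix values was not tested.

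Clock genes were among the lowest lists, with 14 of 17 measured below 0, 2 at least 2-fold lower and a median of -0.36 (-0.22 with the higher floor). Nr1d1, the repressor REV-ERB alpha whose RNA cycles over the day in most tissues, read 939 on vehicle and 959.7, 957, 582, 318, 859 and 617 at 1, 3, 6, 12, 18 and 24 h. Its low arrays, 6, 12 and 24 h, are those of the control probe sets described with the lower genes. Tef, a clock output factor, read 830.0 at 12 h and 1771 on vehicle (log2 ratio -1.09). Its relative Dbp read 115 at 12 h and 222 on vehicle (log2 ratio of -0.60 or lower). Nr1d2, the second REV-ERB, read 522 at 12 h and 970.4 on vehicle (log2 ratio -0.90). Per1, of the negative arm, read 293 at 12 h and 241 on vehicle (log2 ratio 0.28). Cry1, of the same arm, read 734 at 12 h and 601 on vehicle (log2 ratio 0.29). Arntl, of the positive arm, read 474 at 12 h and 610.4 on vehicle (log2 ratio -0.36). The labels do not give the hour of death, so time of day and DHT cannot be told apart in these values.

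Of the growth factor lists, the IGF family had 11 of 13 measured below 0, and Igfbp3 was its sole member at 2-fold. Igf2, a growth factor of the family, read 843 at 12 h and 1298 on vehicle (log2 ratio -0.62). The receptor gene Igf1r read 2283 at 12 h and 3084 on vehicle (log2 ratio -0.43). Wnt, hedgehog and Hox patterning genes had 31 of 42 below 0, none at 2-fold and a median of -0.23 (-0.042 with the higher floor). Sfrp4, a secreted Wnt inhibitor, read 299 at 12 h and 567 on vehicle (log2 ratio -0.92). Hoxa11, which stroma needs for implantation, read 4152 at 12 h and 2355 on vehicle (log2 ratio 0.82). A pair of genes of these families that the list does not hold, chosen after their values were seen, was 2-fold lower. Hoxa6, a homeobox gene, read 238 at 12 h and 482 on vehicle (log2 ratio -1.02) on an _r_at probe set, with its second probe set at the floor on both arrays. Frat2, which acts in Wnt signalling, read 191 at 12 h and 398 on vehicle (log2 ratio -1.05), and its second probe set gave -0.14. TGF-beta, activin and BMP genes had 23 of 32 below 0 and none at 2-fold, and Ltbp3, which stores TGF-beta in the matrix, read 392 at 12 h and 726 on vehicle (log2 ratio -0.89). Immediate early genes, high soon after a stimulus, lay near or under vehicle, with 20 of 30 below 0 and a median of -0.18 (-0.0092 with the higher floor). The stress kinase gene Plk3 read 3743 at 12 h and 7199 on vehicle (log2 ratio -0.94). Fos, the best known of the group, read 538 at 12 h and 494 on vehicle (log2 ratio 0.12). Txnip, which restrains thioredoxin and glucose uptake, read 2961 at 12 h and 6565 on vehicle (log2 ratio -1.15), and its second probe set gave -0.12, so the probe sets did not agree in size. Slc2a1, the glucose transporter that Txnip acts on, read 343 at 12 h and 103 on vehicle (log2 ratio of at least 1.23).

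Some of the lower probe sets shared an order of arrays with control probe sets. The maker's 6 probe sets for the opposite strand of Actb and Gapdh, which should find no transcript, all had their signals at 6, 12 and 24 h under those of the other 4 arrays. The one for the 3 prime end of actin read 628 on vehicle and 627, 653, 274, 219.8, 620.3 and 334 at 1, 3, 6, 12, 18 and 24 h. The same order was found in 33 of the 117 lower probe sets (28.2%), 12 of them with a gap of at least 1.5-fold between the 2 sets of arrays. Of all 3972 probe sets below vehicle at 12 h, which include the 117, 519 (13.1%) had the order and 15 (0.378%) had that gap. A low 12 h signal is part of this order and also of the choice of the 117. The difference between the shares was therefore set in part by that choice. Those 12 probe sets include Klf13, a Krüppel-like transcription factor with the lowest measured ratio, which read 1160.0 on vehicle and 890.3, 1174, 425, 182, 1072 and 435 at 1, 3, 6, 12, 18 and 24 h, and whose other probe set gave -0.25. Sdc4, a cell surface proteoglycan, read 1071 at 12 h and 4209.6 on vehicle (log2 ratio -1.97). Sod1, the cytosolic superoxide dismutase, read 2366 at 12 h and 6159.8 on vehicle (log2 ratio -1.38). Beta actin (Actb) read 993 at 12 h and 3732 on vehicle (log2 ratio -1.91) on a probe set that binds several sequences, while the maker's control probe sets for the sense strand of the same gene gave -0.05, -0.01 and -0.07. The second ordinary probe set of Actb gave -1.92, so the disagreement lay between the ordinary and the control probe sets.

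**Figure D5:**
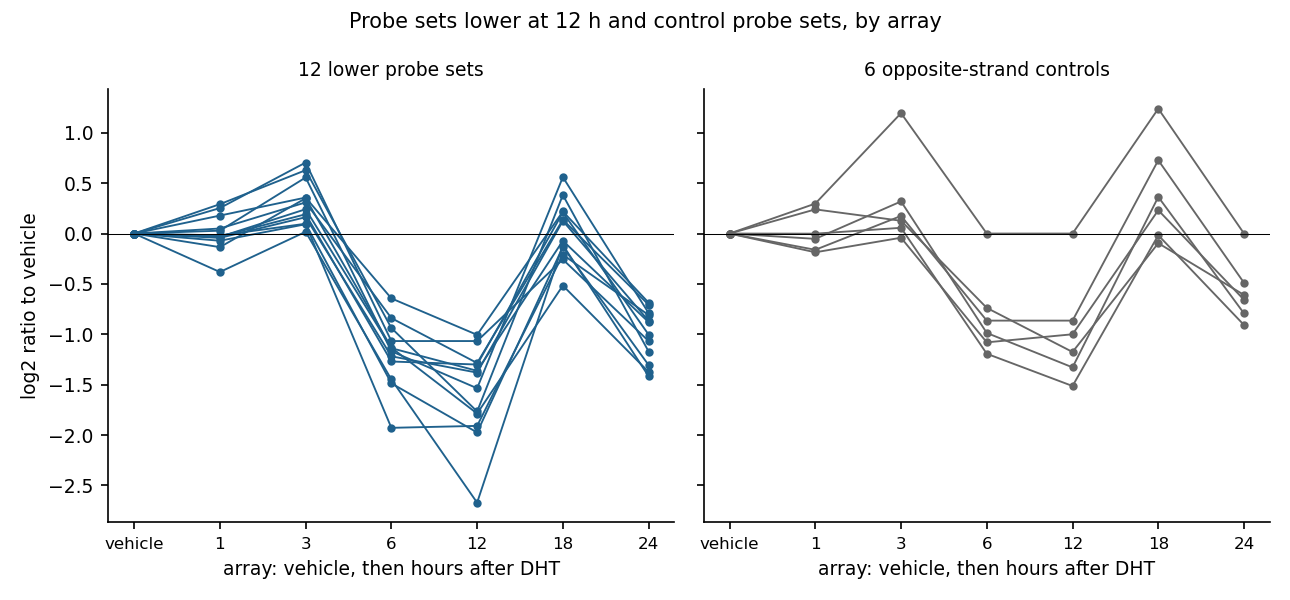
Log2 ratio to vehicle (y axis) on each array (x axis, vehicle and then hours after DHT) for the 12 lower probe sets with a 1.5-fold gap (left, blue) and for the 6 opposite-strand control probe sets of Actb and Gapdh (right, grey), values under the floor being set to it. Both panels share their low arrays, 6, 12 and 24 h.

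Probe sets whose names end in _r_at, designed under relaxed rules, were more frequent among the lower calls. They made up 27 of the 117 lower probe sets (23.1%), 4 of the 147 higher ones (2.72%) and 901 of all 12422 (7.25%). Prp2, the salivary proline-rich protein gene with the second lowest ratio, is one of them and read 159 at 12 h and 952 on vehicle (log2 ratio -2.59). Of the 76 lower genes, 24 had the order of the control probe sets, 15 had such a name and 43 had neither. Nr1d1, Pdk4, Sat1 and Kdelr2 had the order, while Igfbp3, Tnxb, Ciita, Ccn2, Mmp11, C2, Tef and Txnip did not, nor had these 8 such a name, though Txnip had probe sets that did not agree. Without probe sets of the control order 84 lower ones were left, and without the _r_at probe sets 90. The maker's spiked-in transcripts were also lower at 12 h than on vehicle, by 0.18 to 0.64 on the log2 scale. At 24 h they were above vehicle, so they did not have the order of the opposite-strand controls. The part of these array properties in the lower values was not tested.

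Many called genes had like signals at the neighbouring times. Of the 116 higher genes, 70 had their highest signal at 12 h among the 7 arrays, 78 lay within 1.5-fold of their 6 h signal and 73 within 1.5-fold of their 18 h signal. Of the 76 lower genes, 47 were lowest at 12 h and 11 more were at the floor at 12 h and on another array. The choice of both sets favours an extreme 12 h signal. The counts of genes highest or lowest at 12 h therefore do not show a peak at that time. Of the same 76 genes, 48 lay within 1.5-fold of 6 h and 35 within 1.5-fold of 18 h. Set directly against the 6 h array, 37 probe sets were at least 2-fold higher at 12 h (0.298%) and 26 at least 2-fold lower (0.209%). Against the 18 h array 41 were at least 2-fold higher (0.33%) and 79 at least 2-fold lower (0.636%). Mitosis genes had a median of 0.53 in the comparison with 6 h, and macrophage and clock genes had one of -0.36 each. At least 2-fold under all 6 other arrays were 3 genes. These were Klf13, Pik3r2 and Thyn1. Pik3r2, a regulatory subunit of PI3 kinase, read 178 at 12 h and 606 on vehicle (log2 ratio -1.77). Thyn1, a nuclear protein gene, read 181 at 12 h and 613 on vehicle (log2 ratio -1.76) on an _r_at probe set, and its second probe set gave -0.15.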

How the data were processed

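Signals of 7 Affymetrix U74Av2 arrays of mouse uterus were analysed, of which the 12 h DHT and vehicle arrays carry the comparison. The authors deposited linear signal intensity, and the submitters' processing notes name MAS5 without a version. Detection calls were not used here. Arrays had been scaled to a common mean by the authors, since the mean over the central probe sets of each was 500.2, and this was kept. With 20 µg of pooled RNA on 1 array a group, the number of arrays limits the precision, and no test was run.

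Signals under the floor of 145.9 (40th percentile) were raised to it, and log2 ratios of 12 h over vehicle, 6 h and 18 h were taken. A probe set was counted at a ratio of 2-fold or more where the higher signal was at least 291.8. Gene names came from the platform's table: 10833 probe sets named 1 gene, 396 several and 1193 none. A gene was read from its brightest probe set, giving 8251 genes. The 57 gene lists comprise 42 of pathways and 15 of cell type markers.

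Named were the 20 highest and 20 lowest measured genes or a choice of them, genes with the 8 largest bounds each way, list members at 2-fold or the 4 furthest of lists with fewer such members, genes at 2-fold from all 6 other arrays, genes whose probe sets were all at 2-fold, and cell type markers. Genes the series title names, and single members that went against their list or are well known, were added after their values were seen. The members and lists were chosen with earlier results of these data known.

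Alternatives were floors at the 20th and 60th percentile, quantile normalization, thresholds of 1.5-fold and 3-fold, no minimum on the higher signal and the mean over probe sets. Promoters were RefSeq's of GRCm38.p6. The counting was tested on simulated data with planted changes larger than 2-fold in bright probe sets. The noise added was smaller than the spread between the arrays, so calls near the threshold were not tested. Python 3.11.15, numpy 2.4.6, pandas 2.3.3 and matplotlib 3.10.9 were used.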

Additional observations from a re-analysis of the deposited data

How the results depend on the processing

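With 1 array a group the values have no replicate error, and all 12 h ratios share 1 vehicle array. The floor and the threshold set how many probe sets can be counted, and both moved the counts. With the floor at the 20th percentile, 405 probe sets were higher and 461 lower at 12 h than on vehicle, 240 and 201 than at 6 h, and 245 and 275 than at 18 h. With the floor at the 60th percentile the counts were 72 and 49 against vehicle, 13 and 6 against 6 h, and 11 and 44 against 18 h. At 1.5-fold they were 613 and 521 against vehicle, 192 and 147 against 6 h, and 212 and 260 against 18 h. At 3-fold they were 24 and 13, 7 and 3, and 7 and 9. Quantile normalization gave 148 and 125 against vehicle, 35 and 30 against 6 h, and 36 and 81 against 18 h, and leaving out the minimum on the higher signal changed none of the 6 counts. The counts without _r_at probe sets (143 higher and 90 lower) and without those of the control order (84 lower) were chosen after seeing the data. A list median was counted as moved beyond the SD between probe sets over the square root of the list's size. Of 57 list medians, 27 moved with the floor at the 60th percentile, which raises more members to the floor. With the mean over probe sets 12 moved, and with the floor at the 20th percentile 5. With quantile normalization 1 moved, that of the cytosolic ribosomal proteins. A change of sign was counted only for medians not close to 0. That of the matrix protease list was thus left out (0.024, and -0.0037 with quantile normalization). Of the medians so counted, 2 changed sign. The median of the uterine estrogen-response list was 0.0363 with the mean over probe sets of a gene, and that of the red cell list was 0.0495 with the floor at the 60th percentile. Of the 106 genes recomputed, none changed sign under any alternative. By more than the spread between probe sets, 10 genes moved with the lower floor, 47 with the higher floor, 26 with the mean over probe sets and 0 with quantile normalization. No paired analysis was possible because each group had 1 array and the results come from no test.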
